A study of Mus musculus with 3 samples.

Results

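The comparison set muscle stem cells (MuSC) cultured for 3 days with oncostatin M (OSM), called MuSC +OSM, against MuSC taken directly after sorting, called fresh MuSC. It asked which transcripts of fresh cells the OSM culture lacked and which it held in addition. It used 2 of the 3 arrays of the series, with 1 array a side, and was read over 18193 genes, of which 12483 were measured. The third array, MuSC −OSM, is the same culture without OSM, and its signals are given beside the others. All cells came from wildtype C57BL/6 mice at 8 weeks of age and were sorted as CD34+ and α7 integrin+. By the sample titles both cultures were kept in 10% FBS, and MuSC +OSM also received 100 ng/mL OSM. For standard MuSC culture the study's methods give more FBS and added fibroblast growth factor (FGF), and no FGF for screening. The titles do not mention FGF. The study's methods state that the muscle was digested with collagenase and dispase and that cells carrying CD45, CD11b, CD31 or Sca1 were excluded. The sources used here do not say whether animals were pooled for an array. With 1 array per condition there was no test and no replicate check of any difference, and the culture, its 3 days and the OSM cannot be told apart in this comparison.

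Satellite cells renew skeletal muscle and lie in a resting state, quiescence, between the muscle fibre and its basement membrane. After injury they enter the cell cycle, lose quiescence genes such as Calcr and Notch targets, and give rise to myoblasts that express Myod1 and Myog and fuse into fibres. OSM is a cytokine of the interleukin-6 family that binds the receptor chains OSMR and gp130 and activates JAK kinases and the transcription factor STAT3. Immediate early and heat shock genes are transcribed within minutes of a stimulus, such as a mitogen or stress.

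A gene's signal is the MAS5 intensity of the authors, on a linear scale, read from the probe set whose mean signal was highest. Signals are listed in a fixed order, first fresh MuSC, then MuSC −OSM and last MuSC +OSM. Any signal under 40, the floor, was set to it for ratios, and a fold is written as "at least" where the lower signal lay under the floor. Of the 12483 genes measured, 1721 (13.8%) were higher with OSM by at least 2-fold than in fresh MuSC and 2147 (17.2%) were lower by as much, while 8615 (69.0%) lay within 2-fold. At 16-fold the numbers were 42 higher and 108 lower. The median log2 ratio of all measured genes was -0.14. In MuSC −OSM over fresh MuSC, 1917 of 12755 measured genes (15.0%) lay at least 2-fold above and 2606 (20.4%) below. Both comparisons share the fresh array, so their values stand side by side here and are not independent of each other. A lower signal of a gene in bulk RNA cannot tell fewer cells of a type from less RNA per cell.

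The balance of higher and lower genes depended on how the arrays were scaled. Of the genes at least 2-fold apart, 44.5% were higher in MuSC +OSM as deposited, 80.4% after centring on the median of all probe sets, 54.8% after quantile normalization and 87.6% after scaling to the hybridization controls. All 18 hybridization control probe sets, whose RNA is added in fixed amounts, were lower with OSM than in fresh MuSC, with a median log2 ratio of -0.98. The β-actin 3′ to 5′ ratio was 2.35 in fresh MuSC and 1.41 in MuSC +OSM. The part of either in the results was not tested. For all genes the median log2 ratio was -0.14 as deposited, 0.58 after centring on all probe sets and 0.82 after scaling to the hybridization controls. List medians, and turns of their sign in these scalings, are thus best read against the median of all genes. Counts of many lists moved with this shift too. Of all measured genes 34.0% were higher and 8.29% lower after centring, and 43.1% and 6.13% under hybridization scaling. List counts are best read against these shares, or as deposited against 13.8% and 17.2%. Those given as under hybridization scaling are always for MuSC +OSM over fresh MuSC. Where a higher gene had further probe sets above the floor, 1265 of 1582 (80.0%) lay on the same side, of which 683 (43.2% of the 1582) also reached 2-fold. For lower genes 1676 of 1738 (96.4%) lay on the same side and 986 (56.7%) reached 2-fold. The share on the same side was 72.8% over all measured genes.

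**Figure D1:**
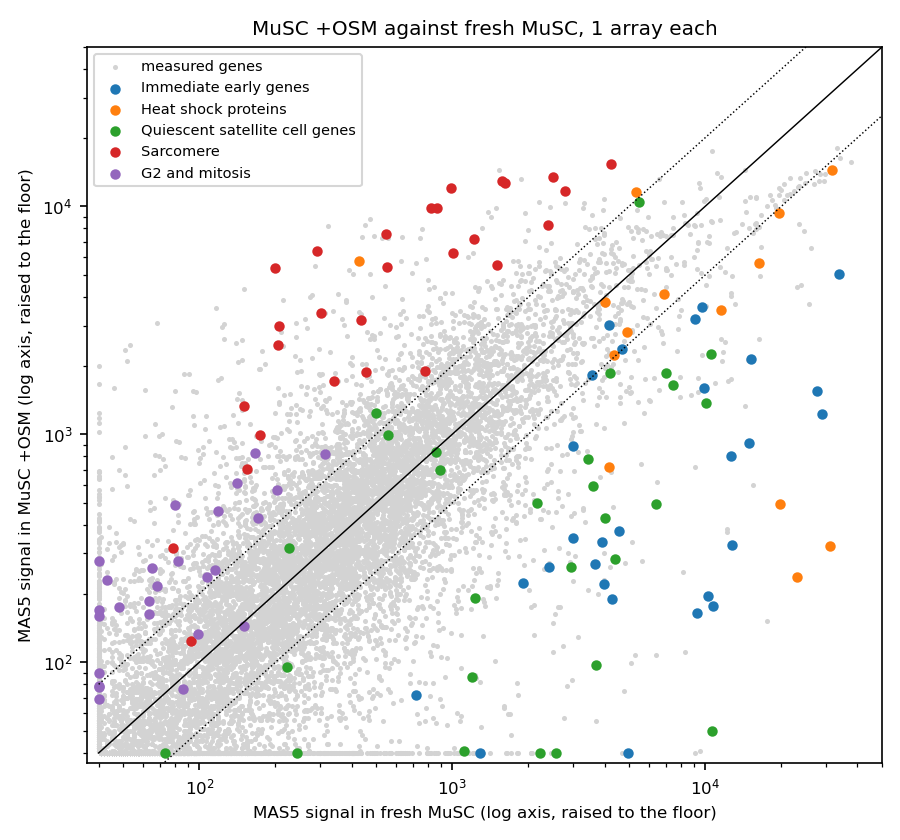
MAS5 signal of each measured gene in MuSC +OSM (vertical, log axis) against fresh MuSC (horizontal, log axis), 1 array each, with signals raised to the floor of 40. Gray points are the 12483 measured genes, coloured points are members of 5 gene lists, the solid line is equality and the dotted lines mark 2-fold. Immediate early and heat shock genes lie mostly under the lower dotted line and 27 of 28 sarcomere genes lie above the upper one.

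The genes farthest below their fresh level were a chemokine, stress genes, satellite cell genes and genes of other cell types of muscle. Cxcl1, a neutrophil-attracting chemokine, had signals of 9538, 59 and 41 and was 233-fold lower in MuSC +OSM. Itih5, which encodes a chain that binds hyaluronan, had 9074, 25 and 36, or at least 227-fold lower. Chodl, a membrane lectin gene expressed in quiescent satellite cells, had 10617, 28 and 50 and was 212-fold lower. In each of these 3 genes both cultures lay near or under the floor. Meg3, a long noncoding RNA of an imprinted locus, had signals of 17473, 190 and 152 and was 115-fold lower, and its 10 other probe sets were lower too. Thbs4, a thrombospondin abundant in tendon, had 4702, 12 and 36, and Tnmd, tenomodulin of tendon cells, had 2062, 33 and 10. Apoe, which encodes a lipid carrier protein, had 3689, 27 and 55 and was 67.1-fold lower. Abca8a, a membrane transporter gene, had 8306, 40 and 111 and was 74.8-fold lower. Lyz1, a lysozyme gene, had 2544, 6 and 1 and was at least 63.6-fold lower. Blnk, which encodes an adaptor protein of B cell receptor signaling, had 2040, 11 and 4. Of the 25 genes that ranked lowest, 10 had a signal under the floor in MuSC +OSM, so their folds are lower limits.

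The genes farthest above their fresh level were muscle genes, enzyme genes and genes of protease inhibitors. Adssl1, which encodes the muscle form of an enzyme of purine synthesis, had signals of 33, 1385 and 2000, above the floor in both cultures only. Pgam2, the muscle form of a glycolytic enzyme, had 53, 3799 and 2453 and was 46.3-fold higher. Neb, the giant thin-filament protein nebulin, had 199, 7120 and 5376, and Ttn, titin, had 292, 9041 and 6343. In these muscle genes the culture without OSM lay as high or higher, with the exception of Adssl1. Another group stood highest in MuSC +OSM. Slpi, which encodes a secreted inhibitor of leukocyte proteases, had 7, 236 and 1663 and was at least 41.6-fold higher than in fresh MuSC. Serpinb2, an inhibitor of plasminogen activators, had 29, 3 and 1175, so that it lay above the floor in MuSC +OSM alone. Serpinb1a, an inhibitor of neutrophil proteases, had 52, 582 and 2091. Timp1, an inhibitor of matrix metalloproteinases, had 323, 1445 and 8232 and was 25.5-fold higher than in fresh MuSC. Hmox1, heme oxygenase, had 116, 1470 and 3592 and was 31.0-fold higher. Ctrb1, a chymotrypsinogen gene, had 46, 824 and 1602, with no other probe set above the floor. The ranking holds 1 probe set that is annotated to a microRNA locus, which is not reported because the array reads longer transcripts.

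**Figure D2:**
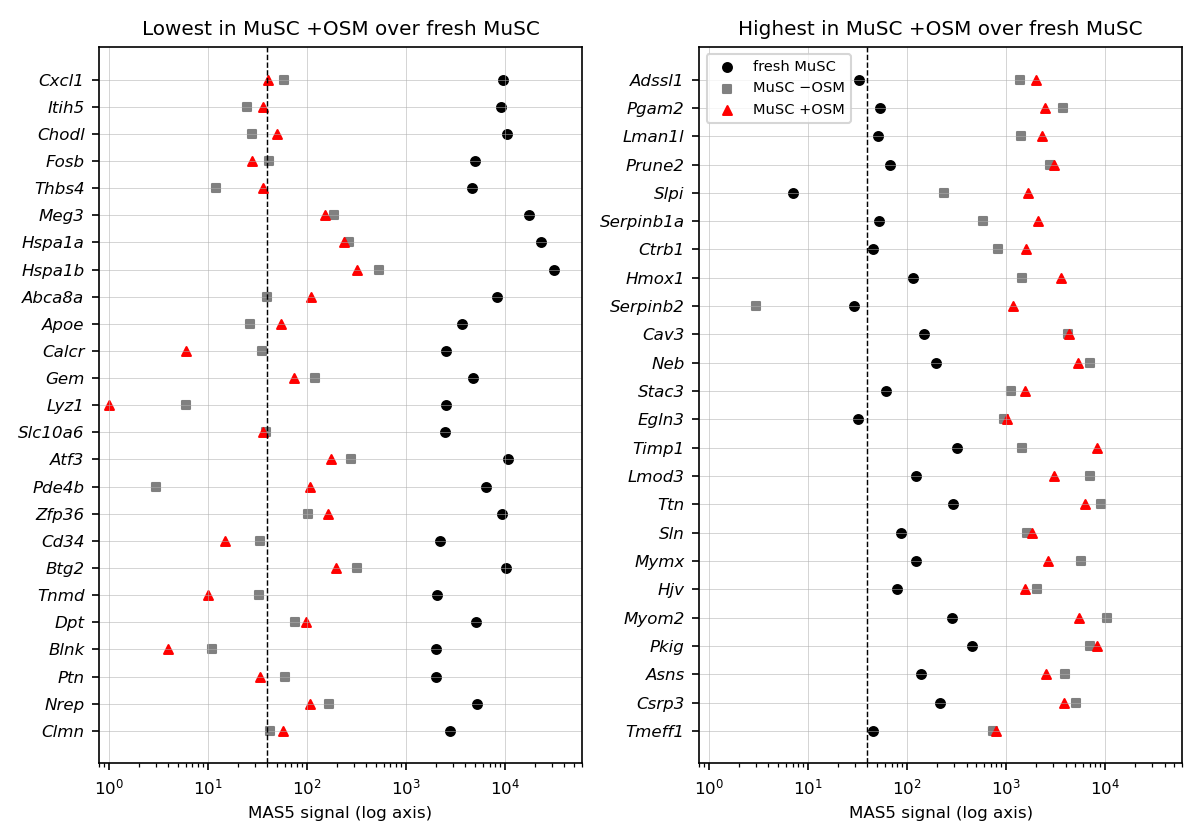
MAS5 signals (log axis) on the 3 arrays of the genes ranked lowest (left) and highest (right) in MuSC +OSM over fresh MuSC, each point 1 array and the dashed line the floor of 40. The left panel shows 25 genes and the right panel 24 of 25, with the microRNA locus left out. In the left panel both cultures lie far to the left of fresh MuSC, and in the right panel Slpi, Serpinb2 and Timp1 lie farther right with OSM than without.

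Most genes of the quiescent satellite cell list were far below fresh levels in OSM culture. Of 28 measured members of this list, 21 were at least 2-fold lower in MuSC +OSM and 1 was higher, against the 17.2% lower and 13.8% higher of all genes. Their median log2 ratio was -2.41, beside -0.14 over all genes. Under hybridization scaling 18 were lower and 4 higher. Without OSM the same list had 20 lower and 2 higher genes and a median of -2.67. Calcr, the calcitonin receptor that holds satellite cells in quiescence, had signals of 2562, 35 and 6 and was at least 64.0-fold lower. Cd34, a sialomucin used here to sort the cells, had 2222, 34 and 15, or at least 55.5-fold lower. Tenm4, a teneurin membrane protein, had 1108, 47 and 41, and Chrdl2, a secreted BMP antagonist, had 3709, 58 and 97. In all 4 genes both cultures lay far under the fresh signal. Pax7, the transcription factor of satellite cell identity, had 4006, 282 and 431 and was 9.29-fold lower. Myf5, a myogenic factor of satellite cells and myoblasts, had 7016, 561 and 1855 and was 3.78-fold lower. Spry1, an inhibitor of growth factor signaling that satellite cells need to return to quiescence, had 4387, 694 and 285, the lowest signal of the 3 arrays being that with OSM. Vcam1, a surface adhesion protein of satellite cells, had 6363, 464 and 493, and Sdc4, the heparan sulfate proteoglycan syndecan-4, had 10047, 862 and 1368. The 1 higher gene was Itga7, the α7 integrin of the sort, at 499, 1808 and 1238. Its partner Itgb1, the β1 integrin, had 1820, 3130 and 5730. Cdh15, M-cadherin of satellite cells, lay within 2-fold at 898, 569 and 698.

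The Notch pathway, whose targets maintain satellite cell quiescence, held more lower than higher genes. Of 13 measured members 9 were at least 2-fold lower and 2 higher, with a median log2 ratio of -1.61, and in MuSC −OSM over fresh MuSC 8 were lower and 2 higher, with a median of -1.30. Under hybridization scaling 5 were lower and 3 higher. Among receptors, Notch3 had signals of 2947, 319 and 263 and was 11.2-fold lower, and Notch1 had 842, 341 and 258. Among target repressors, Heyl had 1196, 143 and 86 and was 13.9-fold lower, Hey1 had 1225, 277 and 191 and Hes1 had 1218, 212 and 229. In these 5 genes the cultures lay within 2-fold of each other. Jag1, a ligand, had 1523, 146 and 230. The 2 higher genes were the ligands Dll1, with 311, 878 and 757, and Jag2, with 66, 173 and 148.

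Immediate early genes, the list with the lowest median, were far lower in OSM culture. All 28 were measured, 25 were at least 2-fold lower and 0 were higher, with a median log2 ratio of -3.57. Without OSM 28 were lower, with a median of -4.05. Fosb, a partner in the AP-1 transcription factor, had signals of 4967, 42 and 28 and was at least 124-fold lower. Fos, of the same family, had 29074, 527 and 1233, and Jun, its partner, had 27697, 2547 and 1541. Atf3, a stress-induced repressor, had 10687, 277 and 176 and was 60.7-fold lower. Zfp36, which encodes a protein that destabilizes AU-rich mRNA, had 9272, 102 and 165. Btg2, an antiproliferative gene, had 10264, 320 and 195 and was 52.6-fold lower. Egr1, a zinc finger transcription factor, still had a high signal in culture, at 33947, 4005 and 5036, although it was 6.74-fold lower. Gem, a small GTPase outside this list, had 4781, 121 and 75. The 3 members within 2-fold were Fosl2, with 4148, 1082 and 3003, Ier3, with 4676, 253 and 2375, and Gadd45b, with 3560, 992 and 1819. For these 3 genes the OSM culture lay nearer to the fresh signal than the culture without OSM. By the study's methods the fresh cells had been digested and sorted just before, and the part of that handling was not tested.

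Promoter sequences are shown for some of the members that held a motif of the pathway upstream of the start. They are taken from RefSeq on build GRCm38.p6, in the sense of the gene and within 250 bases before its start. For the immediate early genes, the cAMP response element (CRE), TGACGTCA, was held by 4 of 23 members with a promoter (17.4%), against 1.77% of all 27025 genes with a promoter. The CArG box, the site of serum response factor, was held by 2 of 23 (8.70%), against 1.62% of all. Both strands were searched throughout. Btg2 and Zfp36 are shown because they were among the lowest genes of the comparison and hold these motifs, which are in capitals. The capitals overlap no other motif searched. The stretches lie at chr1:134079274-134079361 on the minus strand and chr7:28379237-28379326 on the minus strand.
Btg2, CRE: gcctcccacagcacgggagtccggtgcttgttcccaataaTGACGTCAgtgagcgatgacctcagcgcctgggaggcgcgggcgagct
Zfp36, CArG box: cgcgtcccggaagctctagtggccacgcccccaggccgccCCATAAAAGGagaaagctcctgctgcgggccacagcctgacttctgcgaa
A match describes these letters only.

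Several heat shock genes were much lower in OSM culture, and 2 were higher. Of 14 measured members 8 were at least 2-fold lower and 2 higher, with a median log2 ratio of -1.09, and in MuSC −OSM over fresh MuSC 5 were lower and 2 higher, with a median of -0.64. Hybridization scaling left 4 lower and 2 higher. Hspa1a, inducible HSP70, had signals of 23145, 267 and 236 and was 98.1-fold lower in MuSC +OSM. Hspa1b had 31030, 541 and 322, or 96.4-fold lower. The pair are near-identical copies, their 250 bases before the start match at 247 positions, and the array may not read them apart. Dnajb1, the HSP40 partner of HSP70, had 19768, 425 and 493 and was 40.1-fold lower. Hsph1, of the HSP110 family, had 11513, 4048 and 3495, and Hspb1, HSP27, had 16334, 8531 and 5624. In Hspa1a, Hspa1b and Dnajb1 both cultures lay far under the fresh signal, while Hspb1 lay within 2-fold of it without OSM. Hspb8 and Cryab, small heat shock proteins as Hspb1 is, had 427, 12242 and 5761 and 5350, 19551 and 11558, so that both were above fresh MuSC and both were lower with OSM than without. The heat shock element, GAANNTTC, was held by 6 of 11 members with a promoter (54.5%), against 7.73% of all genes with one. Hspa1a and Hspb1 are shown with this element in capitals, which overlap no other motif searched, at chr17:34972213-34972300 on the minus strand and chr5:135887762-135887849 on the plus strand.
Hspa1a, heat shock element: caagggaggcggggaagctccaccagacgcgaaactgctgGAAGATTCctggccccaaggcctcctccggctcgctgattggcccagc
Hspb1, heat shock element, at 2 places: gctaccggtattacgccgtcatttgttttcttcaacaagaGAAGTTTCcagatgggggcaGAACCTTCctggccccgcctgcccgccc

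**Figure D3:**
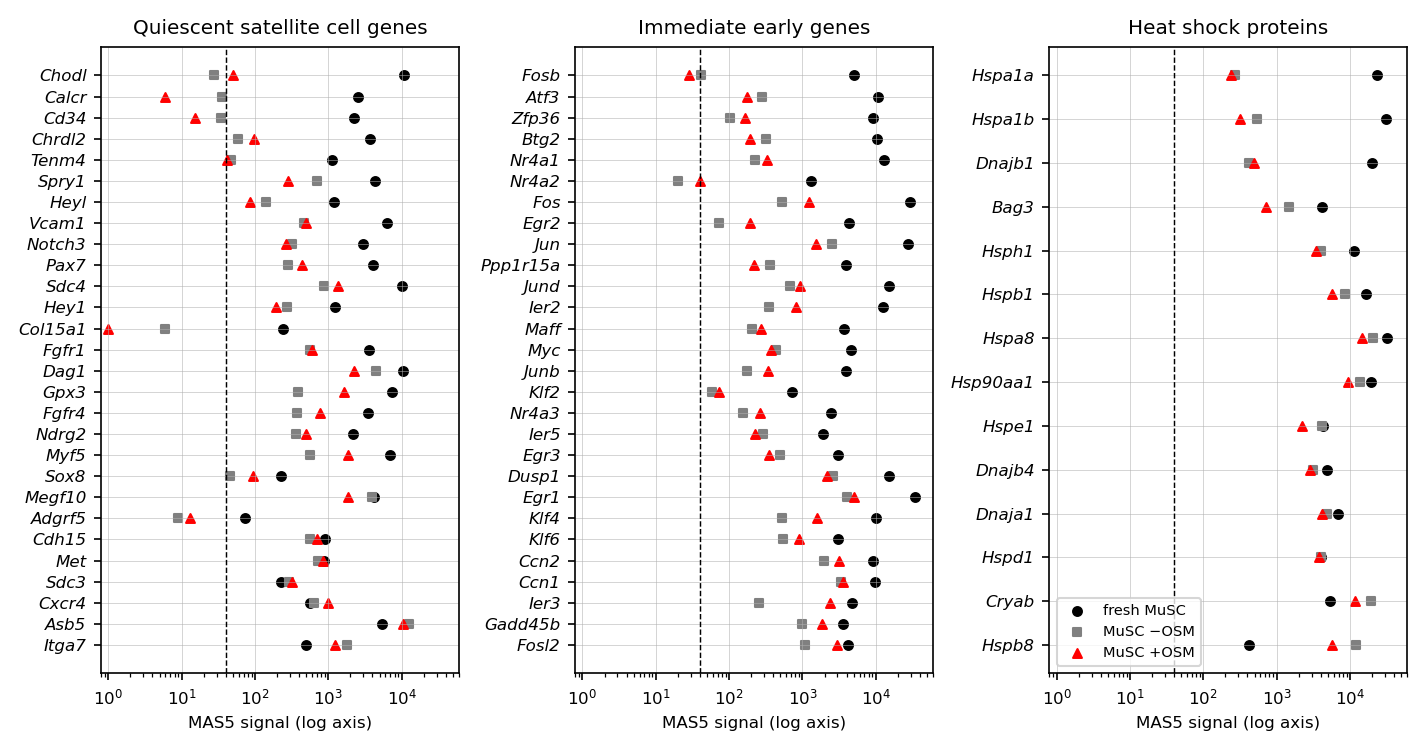
MAS5 signals (log axis) on the 3 arrays of all members of the quiescent satellite cell list (28), the immediate early list (28) and the heat shock list (14), each point 1 array and the dashed line the floor of 40. Signals under 1 are drawn at 1. In the first and second panels the red triangles of MuSC +OSM lie mostly beside the gray squares of MuSC −OSM and left of fresh MuSC, and in the third Hspb8 and Cryab lie right of fresh MuSC.

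Genes of the OSM pathway itself stood on both sides of their fresh level. Of 19 measured members of the STAT3 and IL-6 family list 8 were at least 2-fold lower than in fresh MuSC and 2 higher, with a median log2 ratio of -0.80. In the culture without OSM 13 were lower and 0 higher, with a median of -2.06. With hybridization scaling 3 of 18 were lower and 4 higher than in fresh MuSC, with a median of -0.02. Osmr, the ligand-specific receptor chain, had signals of 395, 65 and 2063 and was 5.22-fold higher than in fresh MuSC, although its 2 other probe sets disagreed, with log2 ratios of -0.85 and 1.11. Il6st, which encodes the shared chain gp130, lay within 2-fold at 3115, 1742 and 2281, and Lifr, the chain of the related LIF receptor, had 810, 58 and 254 and was 3.19-fold lower. Stat3 lay within 2-fold at 1621, 576 and 887. Socs3, the feedback inhibitor that STAT3 induces, had 23588, 129 and 8400 and was 2.81-fold lower. Cebpd and Cebpb, transcription factors of the acute phase response, had 12334, 316 and 1712 and 13105, 1144 and 3714. Il6 had 610, 16 and 20 and Pim1, a kinase, had 2880, 324 and 301, with little difference between the cultures. The second higher gene was Socs2, a feedback inhibitor of growth hormone signaling, at 1506, 1084 and 3542. The STAT motif, TTCNNNGAA, stood upstream of 1 of 17 members with a promoter (5.88%), against 8.13% of all genes with one. It was Socs3, shown with the motif in capitals, which overlap no other motif searched, at chr11:117969472-117969560 on the minus strand.
Socs3, STAT motif: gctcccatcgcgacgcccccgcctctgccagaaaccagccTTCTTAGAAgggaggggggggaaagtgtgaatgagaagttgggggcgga

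In the interferon and antigen presentation list 12 of 22 measured members were at least 2-fold lower and 0 higher, with a median log2 ratio of -1.46, and in MuSC −OSM over fresh MuSC 13 were lower and 1, Oas1a, was higher, with a median of -1.55. Hybridization scaling gave 5 of 20 lower, with a median of -0.55, and 6 of 15 were lower with suffixed probe sets left out, with a median of -0.74. The interferon-induced factor Irf1 had signals of 2112, 126 and 178 and was 11.9-fold lower. H2-K1, a class I histocompatibility gene, had 5597, 824 and 743, and B2m, its light chain, had 5414, 1912 and 1388. Of 8 acute phase and complement genes 6 were lower and 0 higher, with a median of -1.71, and in MuSC −OSM over fresh MuSC 6 of 7 were lower, with a median of -2.98. C1s1, a complement protease, had 1055, 23 and 27, and Serping1, its inhibitor, had 5973, 160 and 1420, so that Serping1 alone of the pair stood well above the floor with OSM. Serpina3n, an acute phase inhibitor, had 2, 5 and 59, and Lcn2, a classical acute phase gene, had 5, 1 and 0. Among 11 measured chemokines 6 were lower and 2 higher, with a median of -1.47, and 4 were lower and 3 higher under hybridization scaling. Cxcl2, a relative of Cxcl1, had 328, 8 and 4. The 2 higher chemokines, Cxcl14 and Cxcl5, had 31, 1 and 146 and 5, 4 and 115, and neither was above the floor on another array.

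Of 22 measured cytokine and growth factor receptors 8 were at least 2-fold lower and 2 higher, with a median log2 ratio of -0.49. After centring on all probe sets and under hybridization scaling it was 0.24 and 0.49, below the 0.58 and 0.82 of all genes. Hybridization scaling gave 5 lower and 7 higher. For MuSC −OSM 11 were lower and 2 higher, with a median of -1.08. The 2 higher genes were chains of the interleukin-4 and interleukin-13 receptor. Il13ra1 had signals of 71, 78 and 1001 and was 14.1-fold higher in MuSC +OSM than in fresh MuSC. Il4ra had 274, 42 and 1270, or 4.63-fold higher. In Il4ra the culture without OSM was close to the floor. Tgfbr3, betaglycan, a TGF-β co-receptor, had 12238, 152 and 384 and was 31.9-fold lower, Egfr had 1498, 45 and 219 and Il1r1 had 261, 13 and 79. Of 11 feedback inhibitors and targets of the ERK pathway 6 were at least 2-fold lower, 0 higher and 5 within 2-fold, with a median of -1.50. After centring on all probe sets 4 of 10 were lower, with a median of -0.85, and under hybridization scaling 1 of 10, with a median of -0.60. For MuSC −OSM 7 were lower, with a median of -1.34. Dusp6, an ERK phosphatase, had 1240, 380 and 337, and Etv5, an ERK-induced transcription factor, had 1275, 278 and 351.

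Muscle differentiation genes were the lists farthest above fresh MuSC. Of 28 measured sarcomere genes 27 were at least 2-fold higher and 0 lower, with a median log2 ratio of 2.75. Without OSM 28 of 29 were higher, with a median of 4.11. Tnnt2, cardiac troponin T, which regenerating muscle also expresses, had signals of 989, 22093 and 12079 and was 12.2-fold higher. Tnnt1, slow troponin T, had 548, 10003 and 7550, or 13.8-fold higher. Myh3, embryonic myosin, had 1214, 18555 and 7204, and Myh8, perinatal myosin, had 204, 6912 and 2465, whereas Myh4, myosin of adult fast fibres, lay within 2-fold at 93, 143 and 124. The adult myosin Myh1 had 2383, 21628 and 8264. All of these genes had a lower signal with OSM than without. Csrp3, muscle LIM protein, had 215, 5074 and 3867, Lmod3, leiomodin of thin filaments, had 125, 7068 and 3052, and Myom2, a protein of the M band, had 287, 10373 and 5446.

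Excitation-contraction coupling genes followed. At least 2-fold, 12 of 13 were higher and 0 lower, with a median log2 ratio of 3.07, beside 12 higher and a median of 4.20 in MuSC −OSM over fresh MuSC. Cav3, caveolin of the muscle membrane, had signals of 150, 4273 and 4322 and was 28.8-fold higher. Stac3, which couples the calcium channel to its release, had 61, 1118 and 1565 and was 25.7-fold higher. Ryr1, the calcium release channel, had 103, 1287 and 878, Cacng1, a calcium channel chain, had 122, 3107 and 1766, and Sln, sarcolipin, had 87, 1629 and 1832. Cav3 and Stac3 were as high with OSM as without or higher.

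Of 14 genes of myogenic commitment and of the postsynaptic membrane 10 were at least 2-fold higher and 0 lower, with a median log2 ratio of 2.24, beside 12 higher and a median of 2.90 in MuSC −OSM over fresh MuSC. Myog, the transcription factor of terminal differentiation, had signals of 1530, 21248 and 14369 and was 9.39-fold higher than in fresh MuSC. Myod1, the factor of myoblast commitment, had 936, 3820 and 4148, or 4.43-fold higher. Mymk and Mymx, the membrane proteins of myoblast fusion, had 94, 2673 and 1547 and 125, 5726 and 2631. Chrna1, the α chain of the acetylcholine receptor, had 1387, 13791 and 9443, and Mef2c, a transcription factor of muscle, had 172, 3294 and 1941. Des, desmin, had 744, 6183 and 7248, but its other probe set went the other way with a log2 ratio of -1.67. Of 7 measured muscle fibre markers 6 were higher and 0 lower, with signals of 8 markers that summed to 7861, 68980 and 35255. An E-box, CAGCTG, was held by 9 of 24 sarcomere members with a promoter (37.5%), against 14.7% of all genes with one. Tnni1, slow troponin I, had 867, 18097 and 9882 and is shown with this E-box in capitals, which overlap no other motif searched, at chr1:135799313-135799398 on the plus strand.
Tnni1, E-box: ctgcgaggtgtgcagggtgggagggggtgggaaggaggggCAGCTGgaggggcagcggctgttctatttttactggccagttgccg

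**Figure D4:**
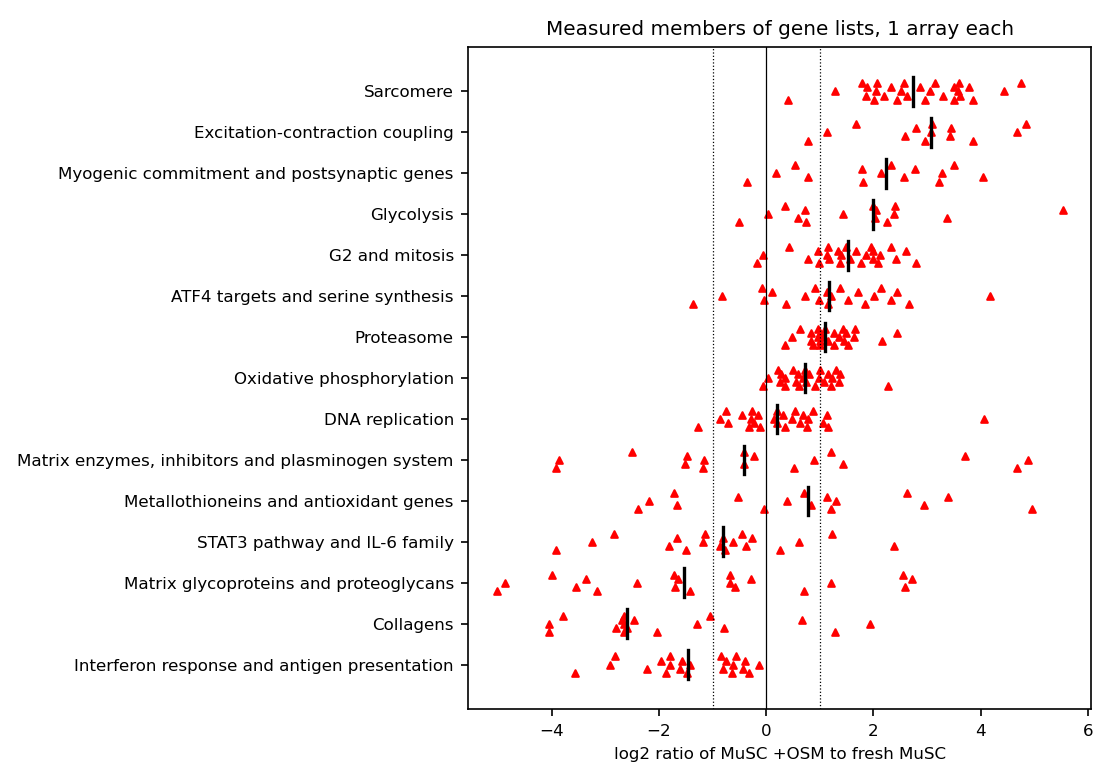
Log2 ratio of MuSC +OSM to fresh MuSC of each measured member of 15 gene lists, 1 array a side. Triangles are genes, black bars are list medians, the solid line is 0 and the dotted lines mark 2-fold. Sarcomere genes lie right of 0, collagens lie mostly left of it, and the matrix enzyme list holds genes at both ends, with the sign of its median (-0.41) turned after centring on all probe sets.

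Cell cycle genes were not all at fresh levels with OSM. In the G2 and mitosis list 20 of 26 measured genes were at least 2-fold higher than in fresh MuSC and 0 lower, with a median log2 ratio of 1.52. In MuSC −OSM over fresh MuSC 22 of 27 were higher and 0 lower, with a median of 1.87. The count for MuSC +OSM depended on the floor and the probe sets. With the floor raised to 183, 7 of 15 were higher, with a median of 0.61. With the median over probe sets 12 of 26 were higher, with a median of 0.97. Top2a, topoisomerase II of dividing cells, had signals of 166, 991 and 828 and was 4.99-fold higher. Mki67, which encodes the Ki-67 antigen, had 203, 744 and 567, Cdk1, the mitotic kinase, had 171, 661 and 430, and Ccnb2, cyclin B2, had 65, 375 and 259. Nek2, a centrosomal kinase, had 15, 209 and 279, and Cenpf, a kinetochore protein, had 9, 157 and 169. In each of these genes both cultures lay above fresh MuSC. Bub1, a spindle checkpoint kinase, had 43, 212 and 230. The other probe set of Top2a and that of Bub1 each had a log2 ratio of only 0.10. Nek2 and Cenpf lay under the floor in fresh MuSC. The cell cycle homology region (CHR), TTTGAA, was held by 8 of 22 members with a promoter (36.4%), against 18.3% of all genes with one. Ube2c, the ubiquitin-conjugating enzyme of mitotic exit, had 80, 542 and 490 and is shown with the motif in capitals on its reverse strand, which overlap no other motif searched, at chr2:164769860-164769928 on the plus strand.
Ube2c, CHR: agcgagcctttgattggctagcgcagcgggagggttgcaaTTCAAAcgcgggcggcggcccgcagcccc

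Of 27 DNA replication genes 22 lay within 2-fold as deposited, 4 were higher and 1 lower, with a median log2 ratio of 0.21, beside 0.39 in MuSC −OSM over fresh MuSC. Counts moved with the scaling, as 11 were higher and 0 lower after centring on all probe sets, with a median of 0.92. Under hybridization scaling 15 were higher and 0 lower, with a median of 1.12. Over all measured genes, 13.8% were higher as deposited, 34.0% after centring and 43.1% under hybridization scaling. With the floor raised to 183 the median was -0.05. Rrm2, the regulated chain of ribonucleotide reductase, had signals of 441, 6119 and 7369 and was 16.7-fold higher, and Rrm1, the partner chain, had 334, 1248 and 730. Mcm6 and Mcm2, of the replicative helicase, had 358, 656 and 795 and 83, 136 and 172. The 1 lower gene was Pola1, polymerase α, at 260, 181 and 108, and Pcna, the sliding clamp, had 2990, 2992 and 2761. As deposited, Rrm2 stood apart from the other members, none of which reached 3-fold. The E2F motif, TTTCCCGC or TTTGGCGC, was held by 5 of 24 members with a promoter (20.8%), against 1.51% of all genes with one. Pola1 and Mcm6 were among the members that held it, and no sequence is shown for this list.

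Among 14 genes of G1 cyclins, kinases and E2F factors 4 were at least 2-fold higher and 2 lower, with a median log2 ratio of 0.36, beside 5 higher, 2 lower and a median of 0.74 in MuSC −OSM over fresh MuSC. Under hybridization scaling 9 were higher and 2 lower. Ccnd1, cyclin D1, had signals of 1798, 528 and 81 and was 22.2-fold lower in MuSC +OSM, so its signal with OSM was the lowest of the 3. Ccnd2, cyclin D2, had 405, 65 and 75. The atypical repressors E2f8 and E2f7 had 67, 2939 and 1107 and 33, 95 and 86, and Ccne2, cyclin E2, had 71, 222 and 294. Ccnd3, cyclin D3, had 631, 1643 and 1911, but its 2 other probe sets had log2 ratios of -1.93 and -0.38. Of 9 measured CDK inhibitors and pocket proteins 3 were higher and 0 lower, or 5 and 0 with hybridization scaling. Cdkn1a, the inhibitor p21, had 1428, 12109 and 9007 and was 6.31-fold higher than in fresh MuSC, Rb1, the retinoblastoma protein, had 756, 2929 and 2182, and Cdkn2b, the inhibitor p15, had 16, 117 and 129. Cdkn1b, the inhibitor p27, lay within 2-fold at 874, 337 and 478, with both cultures under fresh MuSC. Of 11 measured p53 targets 5 were higher and 2 lower, with a median of 0.79. Ccng1, cyclin G1, had 566, 5135 and 3015, and Sesn1, sestrin 1, had 1521, 399 and 247.

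Most collagen genes were lower, while other matrix genes stood on both sides of fresh MuSC. Of 17 collagen genes 13 were at least 2-fold lower and 2 higher, with a median log2 ratio of -2.60, and in MuSC −OSM over fresh MuSC 14 were lower and 1 higher with the same median of -2.60. Col1a1 had signals of 1037, 53 and 164 and Col1a2 14778, 925 and 2123, the chains of type I collagen. Col4a1 and Col4a2, the chains of basement membrane collagen, had 3448, 493 and 208 and 1225, 182 and 88, with the lowest signals in MuSC +OSM. Col3a1 lay within 2-fold at 13247, 2249 and 7683. The 2 higher genes were Col12a1, with 645, 372 and 2460, and Col8a1, with 544, 889 and 1332. With the median over probe sets 0 of the 17 were higher and 14 lower. Of 10 laminin and basement membrane genes 5 were lower and 0 higher, with a median of -1.13, and in MuSC −OSM over fresh MuSC 8 were lower, with a median of -1.56. With hybridization scaling 1 was lower and 2 higher. Lama2, the laminin chain of the muscle basement membrane, had 2870, 798 and 547 and was 5.25-fold lower.

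Of 20 matrix glycoprotein and proteoglycan genes 11 were at least 2-fold lower and 4 higher in MuSC +OSM, with a median log2 ratio of -1.54. In MuSC −OSM over fresh MuSC 14 were lower and 0 higher, with a median of -1.91. Hybridization scaling gave 7 lower and 5 higher. Dcn, decorin, had signals of 12179, 32 and 373 and was 32.6-fold lower, and Tnxb, tenascin X, had 1168, 31 and 26. Postn, periostin, had 7821, 674 and 2908. The 4 higher genes were Tnc, Vcan, Fbln2 and Bgn, and all 4 were highest with OSM. Tnc, tenascin C of injured tissue, had 229, 398 and 1500 and was 6.55-fold higher than in fresh MuSC. Vcan, versican, had 83, 81 and 497, Fbln2, fibulin 2, had 127, 62 and 741, and Bgn, biglycan, had 3458, 3311 and 7946.

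Matrix enzymes held 5 higher and 7 lower genes of 17, with a median log2 ratio of -0.41 whose sign turned after centring on all probe sets, with a lower floor and under hybridization scaling, where 8 were higher and 3 lower. In MuSC −OSM over fresh MuSC 4 of 16 were higher and 8 lower, with a median of -0.65. Lox, which crosslinks collagen, had signals of 555, 1475 and 7247 and was 13.1-fold higher than in fresh MuSC. The other higher genes, beside Timp1 and Serpinb2, were the collagen-modifying enzymes Plod2, with 360, 892 and 971, and P4ha2, with 361, 557 and 833. Adamts1 and Mmp2, matrix proteases, had 5138, 293 and 338 and 1472, 79 and 101, or 15.2-fold and 14.6-fold lower. Timp3, an inhibitor bound to the matrix, had 1020, 77 and 179, against the much higher Timp1 in MuSC +OSM.

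Most markers of fibro-adipogenic progenitors, tenocytes and Schwann cells were lower along with the collagens. Those of smooth muscle, and of leukocytes by the probe sets read here, were on both sides. Of 10 markers of fibro-adipogenic progenitors 7 were at least 2-fold lower and 0 higher, and their signals summed to 30756, 2155 and 2779. Dpt, dermatopontin, had signals of 5094, 76 and 99, whereas Pdgfra, the receptor that defines these cells, had 140, 17 and 43. Of 8 tenocyte markers 6 were lower and 1, Scx, was higher, with sums of 13057, 565 and 1294. With the probe set chosen over the 2 arrays compared, or the median over probe sets, 0 tenocyte markers were higher. Of 8 Schwann cell markers 5 were lower and 0 higher, with sums of 14142, 830 and 1366. Mbp, of myelin, had 3747, 66 and 98, and Sox10, the transcription factor of these cells, had 221, 11 and 63. Of 6 measured endothelial markers 3 were lower, with sums over 10 of 1526, 301 and 283, and Pecam1, the CD31 of the sort, had 4, 4 and 2. Of 5 measured leukocyte markers 1 was lower and 2 higher, with sums over 12 of 1591, 370 and 443. The higher ones were Csf1r, at 58, 62 and 149, whose 2 other probe sets were lower, and H2-Ab1, at 6, 5 and 96. With the median over probe sets 0 leukocyte markers were higher. Ptprc, the CD45 of the sort, had 1, 2 and 7, and Lyz2, a lysozyme of myeloid cells, had 1204, 13 and 13. Of 8 measured smooth muscle and pericyte markers 3 were lower and 2, Acta2 and Abcc9, higher, with sums over 9 of 11871, 22107 and 16828. Most of each sum came from Acta2, smooth muscle actin, alone, at 6543, 19053 and 13114. Rgs5 of pericytes had 1687, 35 and 59. Both measured adipocyte markers of 6 were lower, with sums of 3542, 1124 and 1247. Pecam1 and Ptprc were under the floor on each array, and the part of the other cell types in the collagen, matrix, complement and chemokine results was not tested. Of 10 satellite cell markers 7 were lower and 2 higher, with sums of 45861, 11161 and 14173, and all 10 lay above the floor in fresh MuSC.

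Growth factor axes held genes on both sides. In the insulin-like growth factor (IGF) list 2 of 9 were at least 2-fold higher and 3 lower, with a median log2 ratio of -0.59 whose sign turned after centring on all probe sets and under hybridization scaling, where 4 of 10 were higher and 2 lower, beside -1.75 in MuSC −OSM over fresh MuSC. Igf2 had signals of 789, 5702 and 5881 and was 7.45-fold higher, while Igf1 had 1043, 330 and 193. The binding proteins Igfbp4 and Igfbp6 had 1649, 169 and 3601 and 2510, 242 and 149. Igfbp5, another binding protein, lay within 2-fold at 4793, 530 and 5599, but its other probe set had a log2 ratio of -1.43. Of 14 TGF-β, activin and BMP genes 3 were higher and 5 lower, with a median of 0.26, beside 3 higher, 5 lower and a median of -0.57 in MuSC −OSM over fresh MuSC. Hybridization scaling gave 9 higher and 2 lower. Fst, follistatin, an inhibitor of myostatin and activin, had 148, 1707 and 1418 and was 9.58-fold higher. Bmp4 had 2622, 59 and 174 and was 15.1-fold lower, and Id3 and Id4, BMP targets, had 12678, 3423 and 4158 and 470, 105 and 124.

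Of 15 glycolysis genes 9 were at least 2-fold higher and 0 lower, with a median log2 ratio of 2.00, beside 10 higher, 1 lower and a median of 2.03 in MuSC −OSM over fresh MuSC. With suffixed probe sets, which can read several transcripts, left out, 4 of 10 were higher, with a median of 0.73. Eno3, muscle enolase, had signals of 761, 11151 and 7921 and was 10.4-fold higher. Ldha, lactate dehydrogenase, had 2197, 13347 and 10447, and Tpi1, triose phosphate isomerase, had 1206, 9880 and 6253. Slc2a1, a glucose transporter, lay within 2-fold at 3079, 1378 and 2152. Of 26 oxidative phosphorylation genes 9 were higher, 0 lower and 17 within 2-fold, with a median of 0.73, beside 15 higher and a median of 1.08 in MuSC −OSM. After centring on all probe sets 22 were higher, with a median of 1.46, and under hybridization scaling 25, with a median of 1.71. Fewer were higher with the median over probe sets, at 4, after quantile normalization, at 7, and with suffixed probe sets left out, at 6 of 21. Cox5a, of cytochrome oxidase, had 1934, 11973 and 9377 and was 4.85-fold higher, and Sdha, of succinate dehydrogenase, had 2908, 4740 and 3368. Bnip3, a mitophagy receptor induced by hypoxia, had 405, 5088 and 5041, and Egln3, an oxygen sensor, had 32, 950 and 1023.

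Targets of the stress factor ATF4 and genes of serine synthesis held 13 of 22 at least 2-fold higher and 1 lower, with a median log2 ratio of 1.18, beside 15 higher, 2 lower and a median of 1.46 in MuSC −OSM over fresh MuSC. Asns, asparagine synthetase, had signals of 139, 3926 and 2516 and was 18.1-fold higher. Psat1 and Phgdh, of serine synthesis, had 401, 2653 and 2013 and 505, 2746 and 1461. Fgf21, a stress hormone, had 46, 1596 and 291, and Atf4 itself lay within 2-fold at 6382, 3249 and 3596. The 1 lower gene was Ddit3, at 409, 154 and 159. The ATF4 motif, TGATGCAA, was held by 4 of 19 members with a promoter (21.1%), against 0.918% of all genes with one. Chac1, which degrades glutathione, had 82, 583 and 443 and is shown with the motif in capitals on its reverse strand, which overlap no other motif searched, at chr2:119351009-119351096 on the plus strand.
Chac1, ATF4 motif: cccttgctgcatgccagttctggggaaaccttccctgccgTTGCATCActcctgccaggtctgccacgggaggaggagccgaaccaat

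Of the proteasome genes 17 of 25 were higher and 0 lower, with a median log2 ratio of 1.10, beside 18 higher and a median of 1.52 in MuSC −OSM over fresh MuSC. Psmb5, a catalytic subunit, had signals of 622, 3806 and 3361, and Psmc1, of the base, had 458, 2326 and 2039. Ribosome biogenesis genes lay within 2-fold in 19 of 20, with a median of -0.16 whose sign turned after centring on all probe sets and under hybridization scaling, where 6 were higher and 1 lower. Of all genes 43.1% were higher and 6.13% lower under hybridization scaling. Npm1, nucleophosmin, had 8738, 7551 and 7539. Of 13 endoplasmic reticulum chaperones 1 was lower and 2 higher, with a median of 0.43. These counts are near or under the 17.2% lower and 13.8% higher of all genes. Hybridization scaling gave 8 higher and 1 lower. As deposited, the lower one was Hspa5, BiP, at 26133, 7147 and 6561, or 3.98-fold lower. The higher genes were Sdf2l1, with 128, 255 and 282, and Hyou1, with 242, 335 and 491, whose 2 other probe sets went the other way. Of 16 cholesterol genes 6 were lower and 0 higher, with a median of -0.67 whose sign turned in the same scalings, with 3 lower and 4 higher under that to the controls. Insig1, a sterol sensor, had 1612, 436 and 308.

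Of 16 measured metallothionein and antioxidant genes 7 were at least 2-fold higher and 4 lower, with a median log2 ratio of 0.77, beside 5 higher, 4 lower and a median of 0.54 in MuSC −OSM over fresh MuSC. Under hybridization scaling 10 of 15 were higher and 2 lower. Mt1 and Mt2, metallothioneins that bind zinc, had signals of 23876, 1587 and 4521 and 24597, 2278 and 7797, or 5.28-fold and 3.15-fold lower, with more signal with OSM than without. Gclm, of glutathione synthesis, had 244, 697 and 1878 and was 7.70-fold higher, and Nqo1, a quinone reductase, had 40, 242 and 421. Gpx4, which reduces lipid peroxides, had 634, 2914 and 3921, and Gpx3, a secreted peroxidase, had 7490, 391 and 1646. In Hmox1, Gclm, Nqo1 and Gpx4 the signal was highest with OSM.

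FoxO factors and their targets were lower in 8 of 13 and higher in 3, with a median log2 ratio of -1.78, beside 8 lower, 2 higher and a median of -1.52 in MuSC −OSM over fresh MuSC. Hybridization scaling gave 5 lower and 5 higher. Txnip, a FoxO target that limits glucose uptake, had signals of 4194, 156 and 261 and was 16.1-fold lower. Foxo1 had 1116, 409 and 525, and Irs2, the insulin receptor substrate, had 691, 9 and 35. The 3 higher genes were Bnip3 and the ubiquitin ligases of muscle atrophy, Trim63, with 52, 1752 and 592, and Fbxo32, with 182, 255 and 718. Of 15 measured clock genes 8 were lower and 0 higher, with a median of -1.11, beside 10 lower, 1 higher and a median of -1.39 in MuSC −OSM over fresh MuSC. With hybridization scaling 5 of 16 were lower and 2 higher, with a median of -0.03. Per1, a repressor of the clock that is also an immediate early gene, had 1824, 115 and 72 and was 25.3-fold lower, and Nr1d1, a clock repressor, had 392, 56 and 24. Arntl, the clock activator, had 414, 207 and 235. The sources used here do not give the time of day of each harvest.

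**Figure D5:**
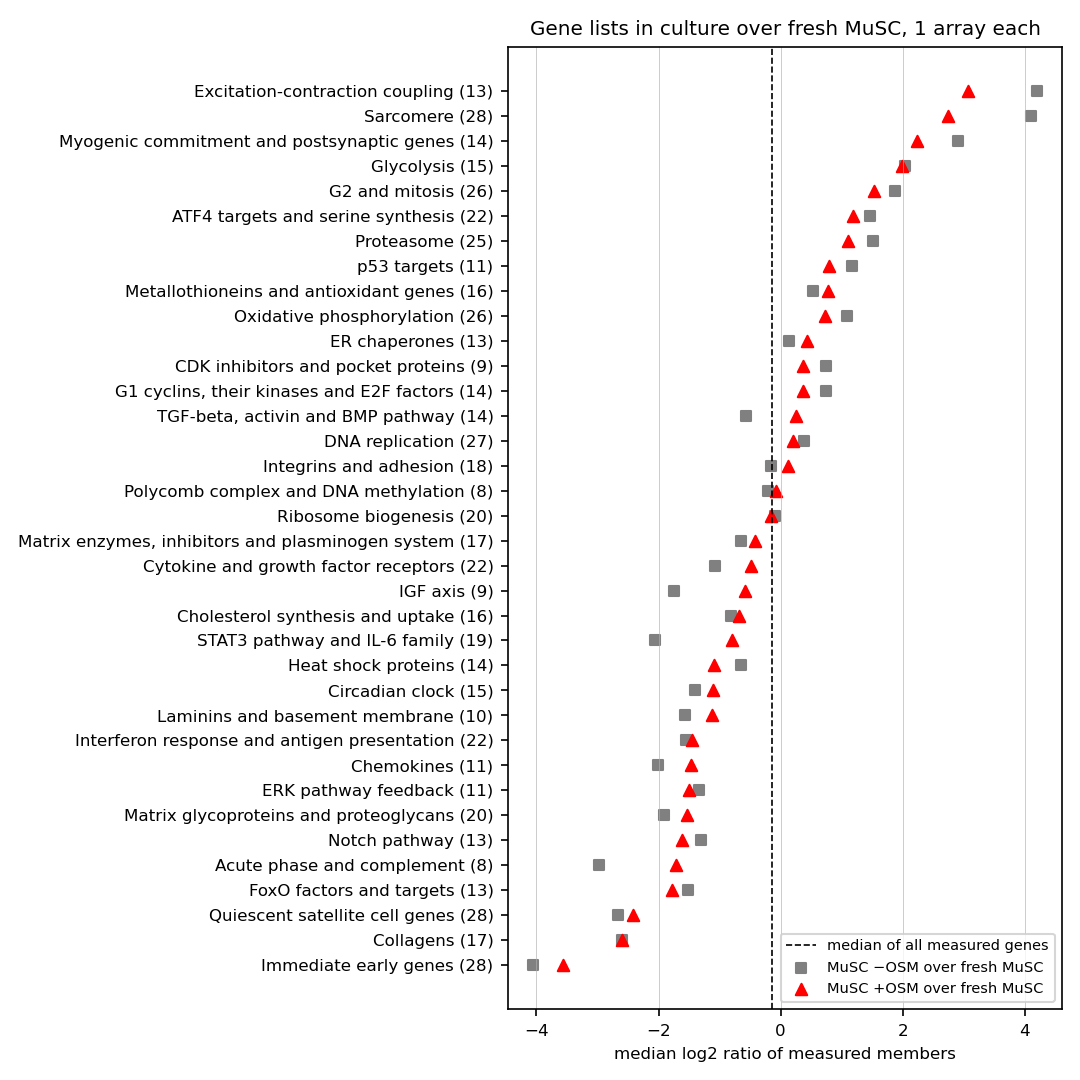
Median log2 ratio of the measured members of 36 gene lists in MuSC +OSM (triangles) and MuSC −OSM (squares) over the same fresh MuSC array, with the number of members measured in MuSC +OSM over fresh MuSC in brackets and the median of all genes (-0.14) as a dashed line. Medians run from -3.57 for immediate early genes to 3.07 for excitation-contraction coupling with OSM. The medians of cholesterol, receptor, IGF, matrix enzyme, Polycomb and ribosome biogenesis genes change sign after centring on all probe sets, and those of replication, CDK inhibitor and integrin genes under at least 1 other setting. The median of all genes changes sign with that centring too, to 0.58.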

How the data were processed

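RNA of sorted MuSC was amplified with 3′ IVT Express reagents and hybridized to Affymetrix arrays, of which the series holds 3, 1 for each condition. The paper describes its OSM regulation data as a mean over biological replicates. The authors deposited MAS5 signal intensity on a linear scale, with a trimmed mean, taken here over the probe sets used, of 198.4 to 198.7 per array. The version of MAS5 was not given in the sources used here. From 45037 probe sets, with 64 controls left out, 34945 named 1 gene in the platform annotation, 932 several and 9160 none, which left 18193 genes. Signals under the floor of 40, the median of all signals, were raised to it, and a gene was measured where 1 of the arrays compared lay above it. Ratios were taken with numpy 2.4.6 and pandas 2.3.3 in Python 3.11.15, figures were drawn with matplotlib 3.10.9, and the steps were tested on simulated data. No test was run, because each condition has 1 array.

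Members and gene lists were chosen with earlier results of these data known. The rule named the 25 highest and 25 lowest genes whose signal reached 200 on the higher array and other probe sets above the floor on the same side. It also took the first 4 and the 6 largest members of each list and the genes that the paper names. Members outside it were named after their values were seen: those in a group of 5 or fewer, Cryab and, for its sequence, Tnni1. Scaling, floor, probe set and threshold were varied. Promoters are RefSeq entries of GRCm38.p6.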

Additional observations from a re-analysis of the deposited data

How the results depend on the processing

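Counts of genes at least 2-fold above and under fresh MuSC with OSM, 1721 and 2147 as deposited, depended on scaling, floor and threshold. They were 4067 and 992 after centring on the median of all probe sets, and 5124 and 728 after scaling to the hybridization controls, an alternative chosen after seeing the data. With the floor at the 75th percentile, 183, they were 1128 and 978, and with that at the 25th percentile, 11, the lower genes were 4358. At 1.5-fold they were 2954 and 3662, and at 4-fold 441 and 635. The cause of these moves, other than that the threshold sets the last 2 pairs, was not tested.

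Medians of 44 gene lists were taken relative to the median of all genes, which centring and scaling to the hybridization controls can hardly move, since they shift nearly all genes alike. Counts within lists do move under them and stand beside many of the lists. The interval of a reported value across genes was wide for some lists, such as -2.59 to 0.82 for the Notch pathway. Genes of a list are not replicates, so lying within it shows little. Where the interval excluded 0, no relative median changed sign, and where it held 0 a change of sign was not counted. Among the other alternatives (quantile normalization, floors and probe sets) 256 of 263 relative medians lay within this interval. The 7 others were G2 and mitosis, at 0.57 with the 75th percentile floor and 1.05 with the median over probe sets, collagens, at -2.56 after quantile normalization, oxidative phosphorylation, at 0.51 after quantile normalization, and the proteasome, at 0.87 after quantile normalization, 1.06 with the 75th percentile floor and 1.08 with the median over probe sets. No paired analysis was possible because each condition has 1 array, and for the same reason no array could be left out. Signals near the floor limit folds of dim genes to bounds, and 201 of the higher and 649 of the lower genes had such a bound.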

Other observations

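Of 18 measured integrin and adhesion genes 4 were at least 2-fold higher than in fresh MuSC and 4 lower with OSM, and 10 lay within 2-fold. After centring on all probe sets 7 were higher and 2 lower, and after scaling to the hybridization controls 10 and 1. Cdh2, N-cadherin, had signals of 542, 4121 and 2141 on the fresh, −OSM and +OSM arrays, and Itgb6, an integrin chain of epithelia, had 1, 306 and 227. On the other side, Itga8, which pairs with β1 integrin, had 719, 71 and 71. Of 8 Polycomb and DNA methylation genes 3 were lower and 0 higher as deposited, whereas 0 were lower and 1 higher after centring and 0 were lower and 3 higher after scaling to the hybridization controls. Of all genes 34.0% were higher after centring and 43.1% after scaling to these controls. Dnmt3b, a DNA methyltransferase, had 173, 18 and 56, Ezh1, a histone methyltransferase, had 573, 150 and 195, and Dnmt3a had 467, 197 and 180, of whose 4 other probe sets 3 lay on the same side. Ezh2, the form of dividing cells, lay within 2-fold at 525, 629 and 617, and Dnmt1, the maintenance methyltransferase, at 378, 354 and 391.

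Poly-A controls, RNA added before labeling, were lower with OSM than in fresh MuSC in 24 of 24 probe sets, with a median log2 ratio of -1.24. In MuSC −OSM over fresh MuSC the median was -1.15.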
